A study of Mus musculus with 6 samples.

Results

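The genes described here encode chemokines, interleukins and their receptors, and the ligands and receptors of the tumor necrosis factor (TNF) families. They also include the LIF, oncostatin M and colony stimulating factor (CSF) genes, and the NF-κB subunits with their inhibitors and related genes. They were measured by RNA sequencing in mDCT15, a line of murine cells that stems from the distal convoluted tubule, a segment of the distal nephron. The series holds 3 wild type and 3 *Pkd1*-/- samples. The *Pkd1*-/- cells were made by CRISPR/Cas9 editing of the gene for polycystin-1, the main gene of autosomal dominant polycystic kidney disease. The sample titles give the edited cells as a knockout, whereas the genotype field of the same samples gives a knockdown. Whether the edited cells stem from 1 clone is not given in the sources used here. All cells were of the same line, their culture medium was the same and held serum, and no cytokine treatment is given in the labels. Whether serum was still present when RNA was taken for sequencing is not given in the sources used here. Members were chosen by their gene symbol alone, and 101 of the 20624 genes in the table fitted the rule. No symbol was repeated among them. The GENCODE annotation names 182 protein-coding genes by the same rule. Of these, 100 are members, 1 carries another name in the table and 81 were not analysed here. The remaining member, *Tnfsf13os*, is a long non-coding RNA.

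Each gene has a mean normalized count, which the authors took over all samples, with both genotypes pooled. It carries no standard deviation, the reads of each sample are unknown, and no test was made on it. The levels below therefore describe the line as sequenced, wild type and edited cells together, and a difference between the genotypes was not analysed here. Longer transcripts give more reads, so the order of genes is given by the mean normalized count per kb of annotated exon, called the level per kb below. Counts of genes past a minimum and shares of the summed mean use the mean itself, in which long transcripts weigh more. Genes with a mean under 10 were regarded as too weakly counted for an order. The order of genes that follow each other closely was not tested.

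Chemokines are small secreted proteins that attract leukocytes along a gradient, and most act on receptors coupled to G proteins. Interleukins and the TNF ligands carry signals between immune cells and tissue cells. Their receptors pass the signal to JAK kinases and STAT factors, or through adaptors to the IκB kinases. These kinases release NF-κB, a dimer of subunits held inactive by IκB proteins, and several of its target genes encode its own subunits and inhibitors as well as chemokines. Tubule epithelium is known to be a source of such signals in kidney injury and in cystic kidneys.

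The markers of the line were examined first. Of 8 renal epithelial markers, 6 had a value and 5 had a mean of at least 10, among them *Cdh16* with a mean of 4680 and *Pax8* with a mean of 4905, while *Krt8* had a mean of 0.980. Of 9 markers of the distal convoluted tubule, 4 had a value, with means from 5.70 for *Klhl3* to 413 for *Wnk4*, and *Slc12a3*, which encodes the sodium chloride cotransporter that defines this segment, was not analysed here. Of 8 leukocyte markers, 4 had a value. *Ptprc*, which encodes the antigen CD45 of all leukocytes, had a mean of 5.36 and *Lyz2* a mean of 2.57, whereas *Csf1r* had a mean of 850 and *Cd68* a mean of 41.9. The highest mean of the endothelial markers was 4.68. Of the 5 fibroblast markers with a value, only *Col1a1* had a mean of at least 10, with 201. The edited gene, *Pkd1*, had a mean of 3175 over all samples, which does not show its level in either genotype.

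Of the 101 members, 69 (68.3%) had a mean normalized count of at least 10, against 66.5% of all genes in the table and 85.3% of its protein-coding genes. The share of the members thus lies close to that of all genes. It lies below that of the protein-coding genes, to which 100 of the 101 members belong. Means of at least 1000 were reached by 10.9% of the members and by 20.9% of all genes. Leaving out genes with a mean under 10, the median level per kb was 46.0 for the members and 80.9 for all genes. Of the 69 members, 23 stood above the latter. The summed mean of the members was 0.264% of that of all genes. It was concentrated in a few of them, since the 10 members with the highest means made up 68.9% of it and *Il6st* alone 25.1%.

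**Figure D1:**
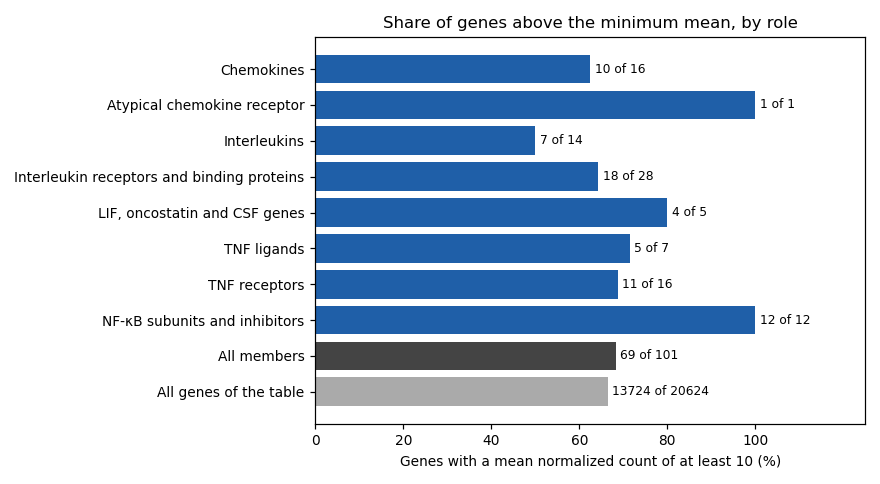
Share of genes with a mean normalized count of at least 10 (x axis, %) for each role, for all members and for all genes of the table, with the number of genes beside each bar. The 12 NF-κB genes all reach the minimum and 7 of the 14 interleukins do, while all members and all genes stand close together.

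The levels are described by the role of the product, and the counts of each role cover only the members. All 12 NF-κB genes had a mean of at least 10, and 11 of them a mean of at least 100, a mean that 50.3% of all genes reached. Of the 48 receptors and binding proteins, 33 (68.8%) had a mean of at least 10 and 7 a mean of at least 1000. Of the 39 ligands, 23 (59.0%) had a mean of at least 10 and none reached 1000, the highest mean being 431. For those above the minimum, the median level per kb was 132 for the NF-κB genes, 46.0 for the receptors and 14.2 for the ligands. The ligand roles were unequal, with medians of 58.8 for chemokines, 10.9 for interleukins and 5.88 for TNF ligands. The median was 34.4 for interleukin receptors and 54.3 for TNF receptors, so chemokines stood above both. With members under the minimum included, chemokines had 7.24 and stood below both, which had 8.76 and 14.4. These differences were not tested. Receptors held 62.1% of the summed mean of the members, NF-κB genes 31.4% and ligands 6.41%.

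**Figure D2:**
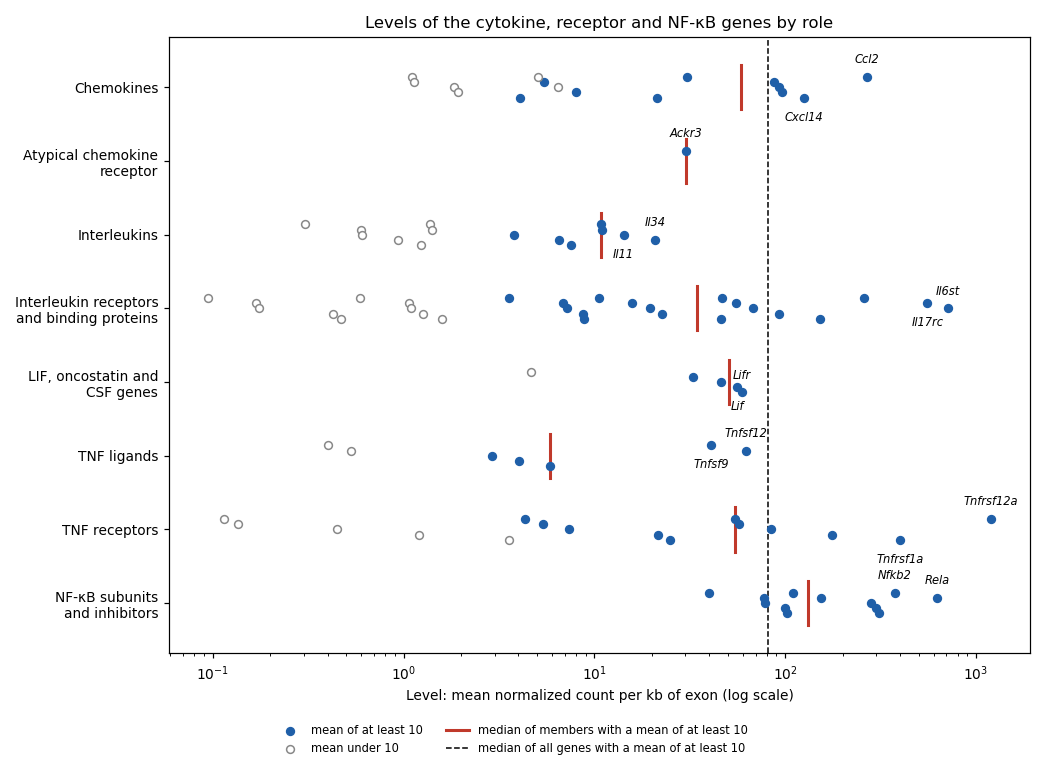
Level per kb of each member (x axis, mean normalized count per kb of exon, log scale) by role, with filled points for a mean of at least 10, open points for a lower mean, red bars for the median of the filled points and a dashed line for the median of all genes above the same minimum. The median of the NF-κB genes, 132, is the only one of the roles above the dashed line at 80.9.

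Of the 16 chemokine genes among the members, 10 were counted above the minimum. The highest was *Ccl2*, which encodes the attractant of monocytes, on chromosome 11 of GRCm39 from 81926397 to 81928279, with a mean normalized count of 304 and a level per kb of 267. It stood above 87.9% of all genes with a length. By coding length, however, *Cxcl14* and *Cxcl10*, with 725 and 708 per kb, stood above *Ccl2* with 684. It was followed by *Cxcl14* with a level per kb of 126 and *Cx3cl1*, a chemokine that is anchored in the membrane and can be shed, with 96.7. The next were *Cxcl10*, a ligand of CXCR3 that is induced by interferon, with 92.5, and *Cxcl1*, an attractant of neutrophils, with 87.2. These 5 genes stood above 80.9, the median level per kb in the whole table once genes under the minimum were left out. The other 5 stood below that median. *Cxcl16* and *Ccl25* had levels per kb of 30.4 and 21.3. The place of *Ccl25* depends on the length. With the longest transcript it had 95.2 per kb, above *Cxcl10* with 93.4 and *Cxcl1* with 87.7. By coding length it had 390, above *Cx3cl1* with 324. In the order by all exons, the lowest chemokines above the minimum were the following. *Cxcl5*, *Cxcl12* and *Ccl27a* had 8.02, 5.43 and 4.09. The minimum separated *Ccl27a*, with a mean of 11.0, from *Ccl20*, an attractant of cells that carry CCR6, with a mean of 9.18. The remaining chemokines, *Cxcl11*, *Ccl28*, *Ccl17*, *Ccl7* and *Ccl5*, had means from 6.99 down to 1.14.

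Few receptor genes for these chemokines had a value. Of 18 genes of classical chemokine receptors, 1 had a value, *Cxcr4*, with a mean of 1.54, and the others were not analysed here. *Ackr3*, an atypical receptor that binds CXCL12 and removes it without G protein signaling, had a mean of 246 and a level per kb of 30.3. Its ligand gene *Cxcl12* had a level per kb of 5.43.

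Among the ligands, the interleukin genes had the smallest share above the minimum. Of 14, 7 had a mean of at least 10, and none a mean of at least 100. The highest level per kb was that of *Il34*, which encodes a ligand of the CSF1 receptor, with 20.8 and a mean of 79.4. By coding length, *Il7* with 135 and *Il1rn* with 112.8 per kb stood above *Il34* with 112.6. *Il11*, a cytokine of the gp130 family, had a level per kb of 14.2. *Il7* and *Il1rn*, the latter encoding the antagonist of the interleukin-1 receptor, had 11.0 and 10.9. *Il15*, *Il18* and *Il17d* had 7.56, 6.50 and 3.77. All of these stood below the median level of all genes. *Il17f*, *Il23a*, *Il24*, *Il33*, *Il17c*, *Il5* and *Il19* had means from 3.01 to 0.690, too weak for an order. *Il6*, *Il1b*, *Tnf* and *Csf2* were not analysed here.

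Among the interleukin receptors, the highest level per kb was that of gp130, the shared signaling chain of the interleukin-6 family, encoded by *Il6st* on chromosome 13 from 112600604 to 112646620. Its mean was 11081 and its level per kb 714, above 97.0% of all genes. The chains that pair with it were lower. *Lifr*, which forms the LIF receptor with gp130, had a level per kb of 59.1, and *Osmr*, which forms a receptor of oncostatin M, had 46.0. *Il11ra1* and *Il6ra*, which bind interleukin-11 and interleukin-6 and signal through gp130, had 19.6 and 10.6, and *Il27ra* had 3.58. Per kb, *Il6st* was thus 12.1 times as high as *Lifr*, 15.5 times as high as *Osmr*, 36.3 times as high as *Il11ra1* and 67.2 times as high as *Il6ra*. With the longest transcript in place of all exons, these ratios were 15.2, 12.0, 37.8 and 115. *Il11ra1* has near-identical copies, and reads shared with them may be missing from its mean, so its ratios are uncertain. Of the ligands of this family, *Lif* had a level per kb of 56.1 and *Clcf1*, which lies outside the naming rule, had 177.

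The receptors of the interleukin-17 family were unequal as well. *Il17rc*, which forms the receptor of interleukin-17A and interleukin-17F with *Il17ra*, had a mean of 2520 and a level per kb of 555. *Il17ra*, the chain shared by several receptors of the family, had a level per kb of 68.0. *Il17rd* had 92.4. *Il17rb*, the chain for interleukin-25, had 8.70, and 40.4% of its annotated exon bases lie opposite exons of *Actr8* and *Chdh*. *Il17re*, the chain for interleukin-17C, had a mean of 2.77. Among the ligands, *Il17d* had a mean of 16.1, while *Il17f* and *Il17c* were under the minimum.

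In the interleukin-1 family, the genes of both chains of the interleukin-1 receptor were counted well above the minimum. *Il1r1*, the binding chain, had a mean of 1773 and a level per kb of 260, and *Il1rap*, the accessory chain, had a level per kb of 55.2. *Il1rl1*, which encodes the receptor of interleukin-33, had 46.6, and its ligand gene *Il33* had a mean of 1.87. *Il18bp*, the binding protein that neutralizes interleukin-18, had a level per kb of 15.7 against 6.50 for *Il18*. For the receptor that interleukin-4 and interleukin-13 share, *Il13ra1* had a level per kb of 152 and *Il4ra* 22.6. *Il10rb*, a chain used by interleukin-10 and its relatives, had 46.3, and 27.9% of its annotated exon bases are shared on the same strand with another gene. Of the 28 genes of interleukin receptors and binding proteins, 10 were under the minimum. Among these, the means were 6.60 for *Il12rb1*, 5.16 for *Il23r*, 2.56 for *Il2rb* and 1.02 for *Il2rg*. *Il18rap*, the accessory chain of the interleukin-18 receptor, had a mean of 8.53, *Il3ra* 3.45 and *Il9r* 0.863. Above the minimum, *Il5ra*, the binding chain for interleukin-5, had a mean of 37.7 and a level per kb of 8.82. *Il15ra*, which presents interleukin-15, had a level per kb of 7.20 against 7.56 for *Il15*, and their order changed with the length used. *Il20rb*, a chain of the receptors of interleukin-20 and its relatives, had a level per kb of 6.87, while *Il20ra*, its partner, had a mean of 0.688. *Il1rapl1*, a relative of the interleukin-1 receptors known from neurons, had a mean of 1.57.

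**Figure D3:**
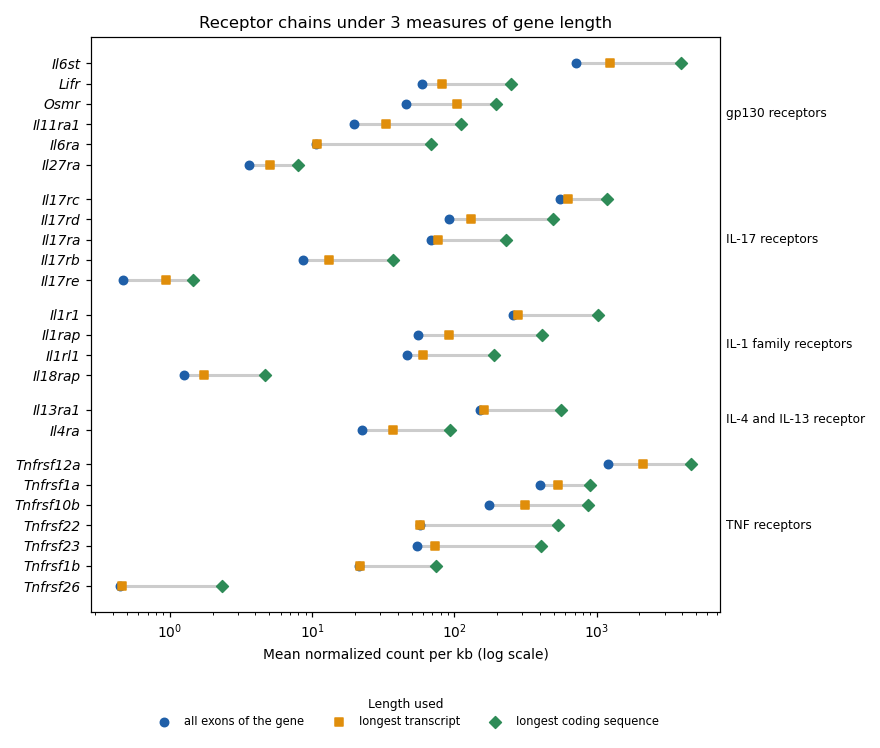
Mean normalized count per kb (x axis, log scale) for receptor chains grouped by family, with the length taken from all exons of the gene (circles), the longest transcript (squares) or the longest coding sequence (diamonds). *Il6st*, *Il17rc*, *Il1r1*, *Il13ra1* and *Tnfrsf12a* are the highest of their groups under all 3 lengths, while *Lifr* and *Osmr* change places.

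The highest level per kb of all members was that of *Tnfrsf12a*, which encodes Fn14, the receptor of the cytokine TWEAK. Its gene spans 23894416 to 23896468 of chromosome 17, minus strand, with a mean of 2355 and a level per kb of 1199, above 98.5% of all genes. In the annotation used here, exons of *Hcfc1r1* on the opposite strand cover 100% of its exon bases, and *Hcfc1r1* itself had a mean of 633. The strand on which reads were counted is not known for certain, so part of either mean could stem from the other gene. Its ligand gene *Tnfsf12* had a level per kb of 62.3, the highest of the TNF ligands. *Tnfrsf1a*, the widely expressed receptor of TNF, had a mean of 1260 and a level per kb of 400. *Tnfrsf1b*, the TNF receptor best known from leukocytes, had a level per kb of 21.5, so that *Tnfrsf1a* was 18.6 times as high per kb, 24.8 times with the longest transcript and 11.9 times with the coding length. *Tnfrsf10b*, the death receptor of TRAIL, had a level per kb of 175 and its ligand gene *Tnfsf10* 2.92. *Tnfrsf21*, death receptor 6, had 84.2. *Tnfrsf22* and *Tnfrsf23*, which encode decoy receptors of TRAIL, had 57.1 and 54.3, and their order changed with the length used.

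The other TNF receptors were lower. *Tnfrsf4*, *Tnfrsf9*, *Tnfrsf14* and *Tnfrsf25* had levels per kb of 24.8, 7.38, 5.38 and 4.33. *Tnfrsf13c*, *Tnfrsf18*, *Tnfrsf26*, *Tnfrsf19* and *Tnfrsf11a* had means from 7.32 to 0.868, under the minimum. After *Tnfsf12*, the TNF ligands with a mean of at least 10 were *Tnfsf9*, the ligand of 4-1BB, with a level per kb of 40.9, *Tnfsf13* with 5.88, *Tnfsf15* with 4.03 and *Tnfsf10*. *Tnfsf12* and *Tnfsf13* share 52.4% and 65.7% of their exon bases on the same strand with the fusion gene *Tnfsfm13*, and reads there cannot be assigned to one gene. *Tnfsf13b* and *Tnfsf18* had means of 2.75 and 1.09.

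Among the LIF, oncostatin M and CSF genes, *Csf2ra*, the binding chain of the GM-CSF receptor, had a mean of 96.7 and a level per kb of 33.1. *Csf3*, which encodes G-CSF, had a mean of 6.63. Outside the naming rule, *Csf1* had a level per kb of 844 and its receptor gene *Csf1r* 115, so that *Csf1* was 40.5 times as high per kb as *Il34*, the other ligand of this receptor.

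All NF-κB subunits were present. *Rela*, which encodes p65, had the highest level per kb, 628, with a mean of 2056 on chromosome 19 from 5687493 to 5698161. *Nfkb2*, which encodes p100 and p52, had 375, although 38.1% of its exon bases lie opposite other genes, and *Nfkb1*, which encodes p105 and p50, had 283. *Relb* and *Rel* had 99.3 and 77.9. *Rela* was 2.22 times as high as *Nfkb1* per kb of exon, but 0.928 times with the longest transcript, so their order depends on the length. *Nfkb2* stood below *Nfkb1* by both other lengths. The values per kb were 420 against 756 with the longest transcript and 1097 against 1247 with the coding length. *Rela* was above *Relb* and *Rel* by each length.

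The inhibitors and the remaining NF-κB genes were counted too. *Nfkbia*, which encodes IκBα, had a mean of 581.0 and a level per kb of 300 and thus stood above *Nfkbib* with 110, of which 29.4% of the exon bases lie opposite other genes, and *Nfkbie* with 103. *Nfkbiz*, a nuclear IκB protein, had 309, and *Nfkbid*, another one, had 40.0. *Tnfaip3*, which encodes the ubiquitin-editing enzyme A20 that ends NF-κB signaling, had a mean of 758 and a level per kb of 78.1. *Nfkbil1* had 154, although 46.2% of its exon bases lie opposite other genes.

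The listed genes that connect receptors with NF-κB and STAT factors were all counted above the minimum. All 20 listed adaptors and kinases had a mean of at least 10. This mean was reached by 66.5% of all genes in the table and 85.3% of its protein-coding genes. Levels per kb of the 20 ran from 2.16 for *Traf1* to 486 for *Tab2*, which encodes an adaptor of the kinase TAK1. Their median was 77.6, below the 80.9 of all genes above the minimum. *Map3k7*, which encodes TAK1 itself, had 309. *Chuk*, *Ikbkb* and *Ikbkg*, the chains of the IκB kinase, had levels per kb of 243, 53.0 and 56.6. All 12 listed JAK, STAT and SOCS genes had a mean of at least 10 as well, with a median level per kb of 120. Of these, *Jak1* had 423, *Stat3* 324 and *Socs3* 207, and *Socs1* had the lowest level per kb, 17.3. Of 17 other cytokine genes outside the naming rule, 13 had a value and 11 of these a mean of at least 10, among them *Ltbr*, the lymphotoxin β receptor, with a level per kb of 649.

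Some members lie next to each other in the genome, several of them in known clusters of related genes. Each member was paired only with the next member along the chromosome. Within 50 kb, 12 such pairs of neighbours with 22 members were found. Pairs with another member between them, such as *Tnfrsf26* and *Tnfrsf23*, were not counted. Of these pairs, 8 differed by more than 10-fold and 3 by more than 100-fold in level per kb, with a median ratio of 19.9. The lower gene was under the minimum in most of them, so the size of these ratios is imprecise. *Il17rc* and *Il17re* lie 668 bp apart on the same strand of chromosome 6 and had means of 2520 and 2.77. *Ccl2* and *Ccl7* lie 8252 bp apart on chromosome 11 and had means of 304 and 1.56. *Cxcl10* and *Cxcl11* lie 10654 bp apart on chromosome 5 and had levels per kb of 92.5 and 1.84. On chromosome 7, *Tnfrsf26* with a mean of 1.43 lies 4759 bp from *Tnfrsf22*, which had a mean of 317, while *Tnfrsf22* and *Tnfrsf23* differed by a ratio of 1.05. On chromosome 8, *Cx3cl1* and *Ccl17* had levels per kb of 96.7 and 5.04.

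**Figure D4:**
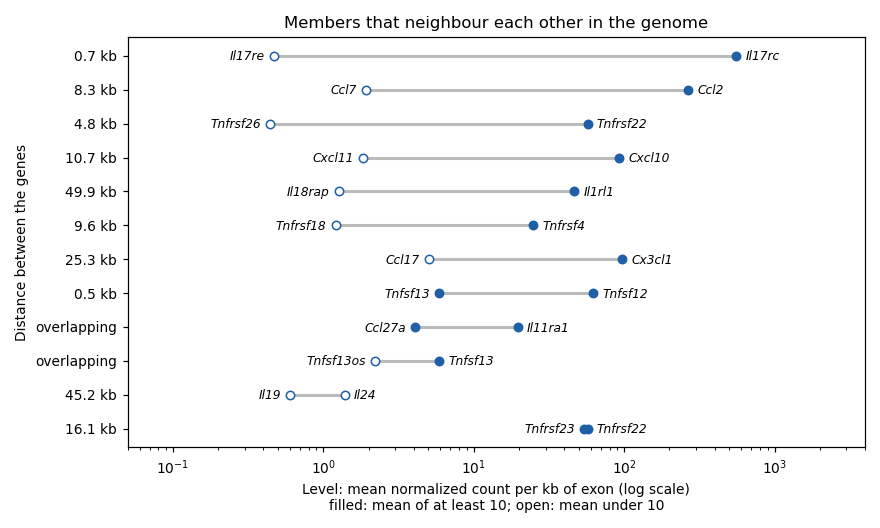
Level per kb (x axis, mean normalized count per kb of exon, log scale) of the 12 pairs of consecutive members within 50 kb. The distance is on the y axis. Filled points show a mean of at least 10 and open points a lower mean. *Il17rc* and *Il17re* stand farthest apart and *Tnfrsf22* and *Tnfrsf23* closest together.

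Near-identical copies limit a few counts. *Il11ra1* lies on chromosome 4 beside further copies of its gene and overlaps *Ccl27a*, which itself has copies. One copy, listed in the table under the name *Gm13306* and as *Ccl27al* in the annotation, had a mean of 1.11. Reads that fit more than 1 copy may be missing from these means. The neighbours *Tnfrsf22*, *Tnfrsf23* and *Tnfrsf26* belong to 1 family, and how many reads they share was not measured. *Cxcl16* and *Il4i1*, an enzyme gene that the rule takes in by its name, lie opposite exons of other genes over 84.8% and 81.1% of their exon bases. *Il4i1* had a mean of 16.1. *Tnfsf13os*, which lies opposite *Tnfsf13*, had a mean of 4.51.

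The promoters of the members were searched for the κB consensus, the sequence motif of 10 bases that NF-κB dimers bind, on both strands. This search was chosen after the levels were seen and is a description. RefSeq promoter sequences on GRCm38.p6, each with 250 bases before and 50 after the start of the gene, were found for 75 members. The motif was present in 10 of these (13.3%), against 4.35% of all 27025 promoters. By role, it was in 5 of the 9 NF-κB promoters, 3 of 10 chemokine promoters and 1 of 9 interleukin promoters. It was in 1 of 23 promoters of interleukin receptors and in 0 of 13 of TNF receptors. Members without a promoter sequence were not searched. Among them were *Nfkb1*, *Nfkbiz* and *Relb*, and the chemokines *Ccl2*, *Cxcl16*, *Cxcl5*, *Cxcl11*, *Ccl7* and *Ccl5*. The members with a match and a mean of at least 10 were *Nfkb2*, *Tnfaip3*, *Rel*, *Nfkbia*, *Nfkbie*, *Cxcl10*, *Cxcl1* and *Il4ra*, and those with a lower mean were *Ccl20* and *Il19*. A match does not show that a factor was bound, and matches on the 2 strands at the same or the next base count as overlapping.

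The 250 bases upstream of the start are shown for *Nfkb2* and *Nfkbia*, a subunit and an inhibitor, and for *Cxcl1* and *Cxcl10*, the chemokines with a match and the highest levels. Each is written 5′ to 3′ along the strand of the gene, with matches to the κB consensus on either strand in capitals. They lie at chr19:46304487-46304736 on the plus strand, chr12:55492648-55492897 on the minus strand, chr5:90890995-90891244 on the plus strand and chr5:92348890-92349139 on the minus strand of GRCm38.p6.
Nfkb2: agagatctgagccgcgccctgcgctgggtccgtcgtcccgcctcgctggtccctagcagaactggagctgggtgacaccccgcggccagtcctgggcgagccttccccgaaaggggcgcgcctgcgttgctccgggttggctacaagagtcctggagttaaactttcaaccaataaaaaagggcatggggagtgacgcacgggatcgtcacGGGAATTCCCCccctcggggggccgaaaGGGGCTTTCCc
Nfkbia: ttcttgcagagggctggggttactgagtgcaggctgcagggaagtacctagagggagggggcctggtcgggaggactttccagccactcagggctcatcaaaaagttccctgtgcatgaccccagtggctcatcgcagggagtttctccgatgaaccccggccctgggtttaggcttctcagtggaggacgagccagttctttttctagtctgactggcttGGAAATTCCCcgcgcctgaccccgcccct
Cxcl1: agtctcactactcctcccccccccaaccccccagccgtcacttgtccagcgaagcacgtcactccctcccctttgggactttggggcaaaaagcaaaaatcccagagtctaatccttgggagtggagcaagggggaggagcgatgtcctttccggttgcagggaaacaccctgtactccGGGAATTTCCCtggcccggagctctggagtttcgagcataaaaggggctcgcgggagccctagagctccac
Cxcl10: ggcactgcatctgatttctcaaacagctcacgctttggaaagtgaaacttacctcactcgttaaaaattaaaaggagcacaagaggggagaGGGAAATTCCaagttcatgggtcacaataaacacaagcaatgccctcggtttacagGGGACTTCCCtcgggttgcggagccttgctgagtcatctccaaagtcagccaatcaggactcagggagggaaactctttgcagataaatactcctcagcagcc

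In *Nfkb2*, the matches begin 39, 38 and 11 bases before the start of the gene, and the first of these fall on overlapping bases. In *Nfkbia* the match begins 29 bases before the start. In *Cxcl1* the overlapping matches begin 71 and 70 bases before it, and in *Cxcl10* 159 and 103 bases. The genes shown had levels per kb of 375, 300, 87.2 and 92.5 in this order. Of the other matched members above the minimum, *Nfkbie* had 103, *Tnfaip3* 78.1, *Rel* 77.9 and *Il4ra* 22.6. Of the 8, 3 thus stood below 80.9, the median level per kb of all genes with a mean of at least 10. *Ccl20*, with a match that begins 80 bases before its start, had a level per kb of 6.46, so a match was also present in a weakly counted gene.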

How the data were processed

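RNA of 3 wild type and 3 *Pkd1*-/- mDCT15 samples was depleted of ribosomal RNA and sequenced as paired reads of 42 bp. The authors trimmed the reads (Trim Galore 0.4.5), aligned them against GRCm39 (STAR 2.7.5a, Ensembl release 105 annotation) and counted them per gene with HTSeq 0.11.0 at default parameters. The authors then fitted DESeq2 1.22.0 in R 3.5.3, with a stated minimum of 5 counts. The means in the table reach down to 0.618. The strand setting is not stated beyond the default, so reads of overlapping genes on opposite strands were treated as uncertain. The library kit keeps the strand of the RNA, and whether the default fitted its orientation is not given in the sources used here. With the opposite setting, a mean would hold reads from the other strand. *Actb* and *Eef1a1*, housekeeping genes looked up after the values were seen, ranked 4 and 8 by mean among all genes.

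One column of the deposited table was used. The authors give in it a signal, the mean over all samples of the counts normalized between libraries. The other numeric columns hold the authors' comparison of the genotypes (log2 fold change, its standard error, a statistic and p-values) and were not used, so the test planned for counts per sample was not made. There were 0 unmatched columns of single samples, so depth per sample is unknown and no interval or error is given.

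The naming rule and the lists were set with earlier results of these data known, and members were then taken by symbol alone. The mean was divided by the exon length of the gene in GENCODE M39 on GRCm39, in which 20122 (97.6%) of the identifiers and all 101 members were found. This annotation is later than the authors', so lengths and overlaps can differ from those at counting. Named genes were the 4 highest per kb of each role with a mean of at least 10, the members beside that minimum, genes with likely copies, a few common ligands and *Pkd1*. Other members are named to account for all of them, and those named with the κB motif, as neighbours or for overlapping exons were chosen after their values were seen. Alternatives were other minimum means, summed symbols and other lengths. Lengths and the motif search were tested on made-up sequences. Python 3.11.15, numpy 2.4.6, pandas 2.3.3 and matplotlib 3.10.9 were used.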

Additional observations from a re-analysis of the deposited data

How the results depend on the processing

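No paired analysis was possible because the values used are 1 mean per gene over all samples, with no value per sample. For the same reason the planned fits of counts, other normalizations and leaving out single samples were not run, and depth per sample sets an unknown limit. With a minimum mean of 5 in place of 10, 77 members were kept, with a minimum of 100, 41, and with repeated symbols summed, 69. The number of members above the median of all genes with a mean of at least 10 was 23. It was 19 with the longest transcript and 18 with the coding length. The median level per kb was recomputed for all members of each role regardless of the minimum, then with the longest transcript, then with the coding length. It was 8.76, 48.7 and 161 for interleukin receptors, 14.4, 57.2 and 188 for TNF receptors, and 46.0, 72.1 and 222 for the LIF, oncostatin M and CSF genes. It was 7.24, 90.5 and 357 for chemokines, 4.03, 6.84 and 29.5 for TNF ligands, and 2.59, 11.9 and 97.7 for interleukins. For the NF-κB genes, which all passed the minimum, it was 165 with the longest transcript and 364 with the coding length. Lengths that leave out exon bases raise each value by construction. The NF-κB genes had the highest median of the 7 roles in each setting, while chemokines went from rank 2 to rank 5 when weak members were included.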
